A study of Rattus norvegicus with 9 samples.

Results

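Ddit3, Hspa5, Hspb1 and Hmox1 are 4 genes that cells switch on under different kinds of stress, and their transcripts were followed in rat hypothalamus after PEL surgery. The genes were taken by their Ensembl IDs, which were ENSRNOG00000006789 for Ddit3, ENSRNOG00000018294 for Hspa5, ENSRNOG00000023546 for Hspb1 and ENSRNOG00000014117 for Hmox1. They are 4 of the 34784 rows of the count table, and all 4 passed the filter on low counts, which left 17345 genes for testing. The symbols come from the rule that chose the genes, since the table holds IDs without names.

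The tissue held the supraoptic and paraventricular nuclei, where magnocellular neurons make vasopressin and oxytocin, and came from rats of the S-D strain. There were 3 libraries from 1 d after PEL surgery, 3 from 7 d after it and 3 labelled Control, each from bulk total RNA. PEL is an abbreviation that the labels leave unexplained; in the publication it stands for an electrical lesion of the pituitary stalk, made as a model of central diabetes insipidus. The labels give no age or sex, do not say what was done to the Control rats, and do not say whether a library came from a single animal, so p-values reflect only how these libraries varied. Totals ranged from 13338433 to 17294334 at 1 d, from 17014260 to 18685921 at 7 d and from 18948576 to 21012998 in Control, so every 1 d library was shallower than every Control library; the part of depth in the results was not tested. The labelled tissue could not be checked against its marker genes because the other IDs carry no names. In bulk tissue, fewer cells of a type and less RNA per cell cannot be told apart.

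The proteins belong to separate branches of the stress response. When unfolded proteins build up in the endoplasmic reticulum, Hspa5 (BiP, the HSP70 chaperone of that compartment) is induced through ATF6 and XBP1, and Ddit3 (CHOP, a transcription factor linked to cell death) through PERK and ATF4. Hspb1 (HSP27 in humans, HSP25 in rodents) is a small heat shock protein that holds damaged proteins and stabilises actin filaments; it is induced by heat shock factor 1 and is known to rise in injured neurons and in reactive glia. Hmox1 is the inducible heme oxygenase, which breaks heme down to biliverdin, iron and carbon monoxide; its gene is held down by BACH1 and driven by NRF2, and it is strongly expressed by macrophages that take up blood.

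RefSeq promoter sequences of build GRCr8 were matched by symbol for Ddit3, Hspa5 and Hspb1. None was available for Hmox1, so its promoter was not searched. The sequences are shown because elements of these branches, and other promoter elements, were searched for in them. Each run is the 250 bases before the annotated start of the gene, 5′ to 3′ on the gene's strand. Capitals mark a match to the ER stress element in Hspa5. In Ddit3 they mark the AP-1 site, which belongs to none of the branches described above. In Hspb1 they mark facing heat shock units, a motif added after the sequences had been read.
Hspb1, chr12:26432302-26432551, minus strand: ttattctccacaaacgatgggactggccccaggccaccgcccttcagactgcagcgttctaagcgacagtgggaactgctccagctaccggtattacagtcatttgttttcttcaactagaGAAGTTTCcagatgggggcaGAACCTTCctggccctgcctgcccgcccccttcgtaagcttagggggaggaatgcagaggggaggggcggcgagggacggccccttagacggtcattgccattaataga
Hspa5, chr3:38452766-38453015, plus strand: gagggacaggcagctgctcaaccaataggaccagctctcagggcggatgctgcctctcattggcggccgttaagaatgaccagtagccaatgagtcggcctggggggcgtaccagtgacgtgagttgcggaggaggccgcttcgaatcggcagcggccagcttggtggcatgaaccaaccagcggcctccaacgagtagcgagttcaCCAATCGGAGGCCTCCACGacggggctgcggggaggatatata
Ddit3, chr7:65001445-65001694, plus strand: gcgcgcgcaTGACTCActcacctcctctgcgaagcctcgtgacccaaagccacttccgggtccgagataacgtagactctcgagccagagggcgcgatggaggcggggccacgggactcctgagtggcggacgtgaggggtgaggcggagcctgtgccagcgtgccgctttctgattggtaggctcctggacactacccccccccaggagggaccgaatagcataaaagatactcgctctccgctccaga

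Each motif was searched on both strands by its exact letters, with N for any base. Sites with a mismatch, or outside the 250 bases, were therefore not counted. The share of all 33469 rat promoters of the table with a match in the same window is given as the background. The ER stress element, CCAAT and CCACG with 9 bases between, matched Hspa5 between 43 and 25 bases before the start, and 0.0657% of promoters held it. The AP-1 site, TGANTCA, matched Ddit3 between 241 and 235 bases before the start (6.34% of promoters). Facing heat shock units, GAANNTTC, a motif added after the sequences had been read, matched Hspb1 at 129 to 122 and at 109 to 102 bases before the start (7.23% of promoters). The CCAAT box, CCAAT, was found at 4 places in Hspa5, of which the nearest to the start is the first part of the ER stress element, and at 1 place in Ddit3 (34% of promoters). The GC box, GGGCGG, was found at 3 places in Hspb1 and at 1 in Hspa5 (30.5% of promoters). There was no match in the 3 windows to ATTGG and CCACG with 1 base between (the second form of the ER stress element, 0.0418%), TGATGNAA (the C/EBP-ATF response element, 3.4%), GAA, TTC and GAA or TTC, GAA and TTC with 2 bases between units (the heat shock element of 3 units, 0.663% each), TGACNNNGC (the core of the antioxidant response element, 10.1%) or TATAAA (the TATA box, 12.9%). Hmox1 had no window, so the lack of a match to the antioxidant response element says nothing about that gene. These matches describe the letters of the windows, and binding was not measured.

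The first comparison asked which of the genes had changed 1 d after surgery. Hspb1 rose 7.96-fold, and Ddit3, Hspa5 and Hmox1 did not pass the test. The call of 1 of 4 genes stands against 20.4% of all tested genes called in either direction with 11.4% called higher and 9.01% called lower (quasi-likelihood test of edgeR, adjusted p below 0.05 by Benjamini-Hochberg). Groups without overlap were seen for 3 of the 4 genes, Hspb1 and Hmox1 upward and Ddit3 downward, against 20.2% of tested genes higher and 19.5% lower without overlap. The median log2 fold change of the 4 genes was 0.20, against -0.015 over all tested genes.

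Levels are given in CPM (counts scaled to a common library size, with TMM factors). Hspb1, the small heat shock protein, had 81.7, 46.1 and 66.0 CPM in the 1 d libraries of replicates 1, 2 and 3. Control had 11.2, 6.27 and 6.94 CPM. The lowest 1 d library was thus far above the highest Control library. The means were 64.6 ± 17.8 CPM at 1 d and 8.12 ± 2.65 CPM in Control (SD, n = 3 each). This was a log2 difference of 2.99 (SE 0.379, edgeR adjusted p = 0.00474), or a fold of 7.96 with a 95% interval of 4.32 to 14.7. Of the 17345 tested genes, 0.352% had a higher log2 fold change at 1 d, which placed Hspb1 at rank 62. The raw counts behind these levels were 731 to 1460 at 1 d and 117 to 213 in Control.

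**Figure D1:**
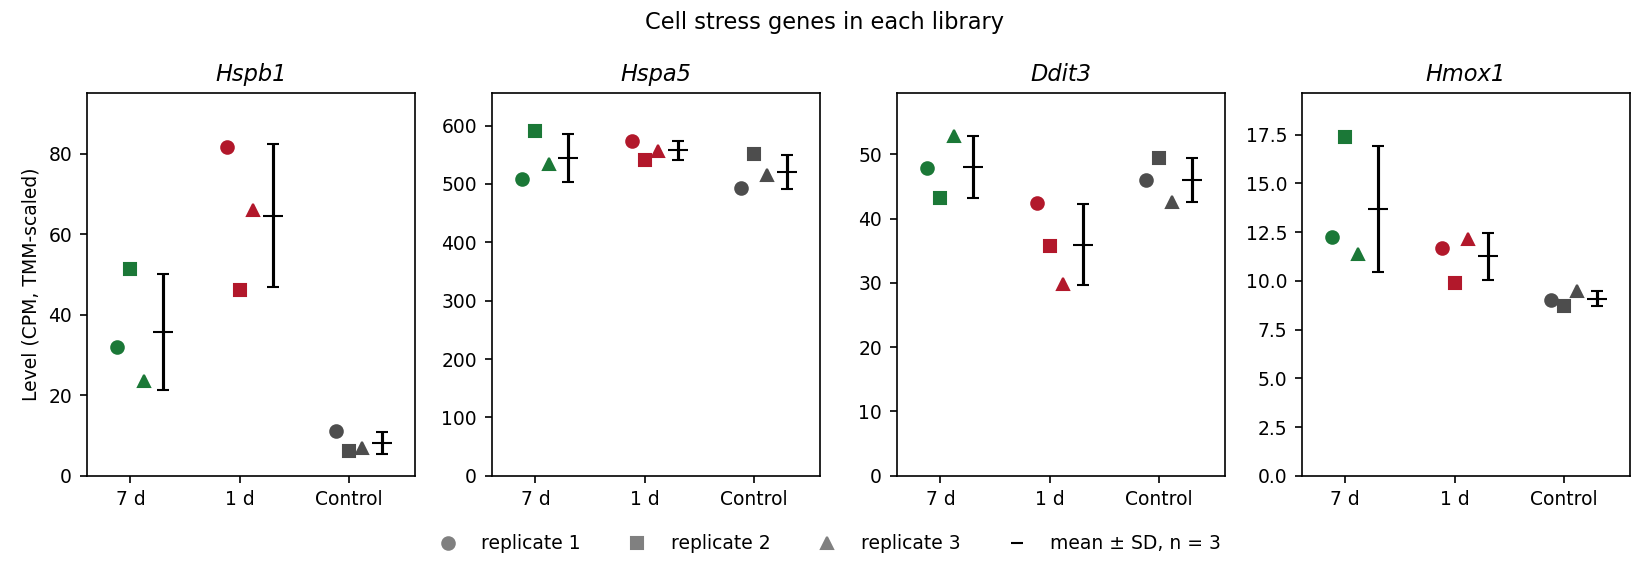
Level of each gene in every library, in CPM on TMM-scaled library sizes (vertical axes start at 0), for 7 d, 1 d and Control; symbols mark replicate numbers and the bar is the mean ± SD of 3 libraries. Hspb1 at 46.1 to 81.7 CPM at 1 d and 23.4 to 51.5 CPM at 7 d lies above the 6.27 to 11.2 CPM of Control, while Hspa5 overlaps between all groups.

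Hspa5, the endoplasmic reticulum chaperone, drew the most counts of the 4 genes, a number that also depends on transcript length, and showed no called change. It had 574, 541 and 557 CPM in the 1 d libraries, against 494, 552 and 515 CPM in Control. Both sets of values overlapped. The means were 557 ± 16.4 CPM at 1 d and 520 ± 29.5 CPM in Control (SD, n = 3 each). In log2 terms the difference was 0.10 (SE 0.0741, edgeR adjusted p = 0.367), and the 95% interval of the fold was 0.956 to 1.20, below the 4.32 at the lower end for Hspb1. After cyclic loess normalization, which removes trends with abundance, the log2 fold change was 0.25 and passed the test (limma adjusted p = 0.0409).

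Ddit3, the CHOP transcription factor, had 42.4, 35.6 and 29.8 CPM in the 1 d libraries, against 46.0, 49.4 and 42.6 CPM in Control. The highest 1 d library lay just below the lowest Control library, so the groups came close without overlapping. The means were 35.9 ± 6.31 CPM at 1 d and 46.0 ± 3.44 CPM in Control (SD, n = 3 each). Its log2 fold change of -0.35 (SE 0.128) had an unadjusted p of 0.0189 and an adjusted p of 0.0743 in edgeR, and so was not called. It was called when 1 d replicate 1, the library nearest to Control, was left out (log2 fold change -0.49, edgeR adjusted p = 0.0424). Its sign was opposite to that of Hspa5, the other target of the unfolded protein response, and neither was called.

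Hmox1, the heme oxygenase, was covered by few reads, with 157 to 209 counts at 1 d and 163 to 201 in Control. It had 11.7, 9.91 and 12.2 CPM in the 1 d libraries, against 9.01, 8.73 and 9.49 CPM in Control. Each 1 d library was above each Control library, by a small margin for replicate 2. The means were 11.3 ± 1.19 CPM at 1 d and 9.08 ± 0.381 CPM in Control (SD, n = 3 each). Hmox1 thus differed by 0.31 on the log2 scale (SE 0.171, edgeR adjusted p = 0.221), with a 95% interval of the fold of 0.954 to 1.61.

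**Figure D2:**
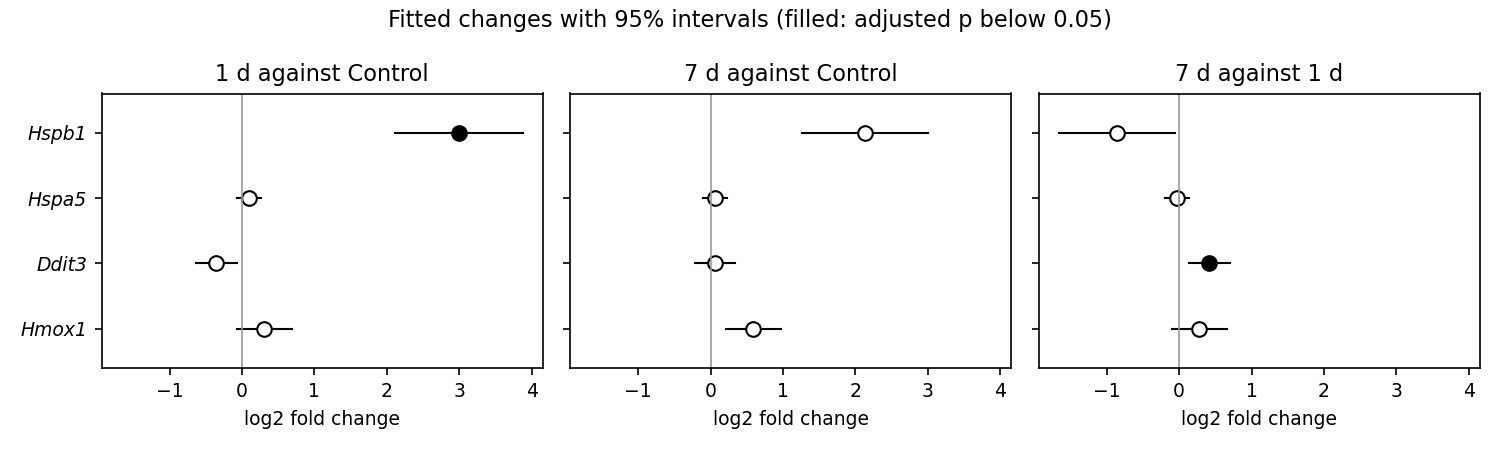
Fitted log2 fold changes of the 4 genes in the 3 comparisons, with 95% intervals from the edgeR fit; filled points have an adjusted p below 0.05. Hspb1 stands apart at 2.99 at 1 d and 2.13 at 7 d against Control, and Ddit3 is the filled point between the times at 0.42.

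The second comparison asked what remained at 7 d. None of the 4 genes passed edgeR's test against the same Control libraries, where 1.02% of tested genes were called. An unadjusted edgeR p below 0.05 was seen for 2 of the 4, Hspb1 and Hmox1, and for 2136 of the 17345 tested genes. DESeq2 called 1 of the 4, Hspb1, and 523 of all tested genes. With limma-voom, 0 of the 4 and 146 of all tested genes were called. Hspb1 and Hmox1 were higher without overlap, against 8.85% of tested genes, and the other two overlapped. The median log2 fold change of the 4 genes was 0.33, against -0.010 over all tested genes. Because both comparisons use the same Control libraries, their values are not independent.

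Hspb1 had 32.1, 51.5 and 23.4 CPM in the 7 d libraries, again all above the Control maximum of 11.2 CPM. The mean was 35.6 ± 14.4 CPM at 7 d, against 8.12 ± 2.65 CPM in Control (SD, n = 3 each). The log2 fold change of 2.13 (SE 0.373) corresponds to a fold of 4.39 with a 95% interval of 2.40 to 8.01. Its edgeR adjusted p of 0.0516 lay just outside the threshold, at an unadjusted p of 0.000533. The call depended on the processing, since 7 of 19 alternatives made it, with adjusted p from 1.30e-09 in DESeq2 to 0.171 in edgeR with Control replicate 3 left out; without 7 d replicate 2, the highest of the 7 d libraries, the log2 fold change was 1.77 (adjusted p = 0.109). Among left-out libraries, the call was made without Control replicate 1 (adjusted p = 0.0483) and without 7 d replicate 3 (0.0431). In size the value ranked 64 of 17345 genes.

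Hmox1 had 12.3, 17.4 and 11.4 CPM in the 7 d libraries, against 9.01, 8.73 and 9.49 CPM in Control. The lowest 7 d library was above the highest Control library, and replicate 2 stood above the other two of its group. The means were 13.7 ± 3.25 CPM at 7 d and 9.08 ± 0.381 CPM in Control (SD, n = 3 each). In log2 terms this was 0.59 (SE 0.170), a fold of 1.51 with a 95% interval of 1.16 to 1.95, at an unadjusted p of 0.00562 and an edgeR adjusted p of 0.166. It was called in 0 of 19 alternatives, and without 7 d replicate 2 the log2 fold change was 0.38.

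Ddit3 and Hspa5 overlapped with Control at 7 d. Ddit3 had 47.9, 43.2 and 52.9 CPM at 7 d, against 46.0, 49.4 and 42.6 CPM in Control, a log2 difference of 0.061 (SE 0.127, edgeR adjusted p = 0.898) and a 95% interval of the fold of 0.859 to 1.27. Its sign turned, to -0.015, without 7 d replicate 3. Hspa5 had 509, 590 and 534 CPM at 7 d, against 494, 552 and 515 CPM in Control, a log2 difference of 0.066 (SE 0.0741, edgeR adjusted p = 0.784) and an interval of 0.934 to 1.17.

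**Figure D3:**
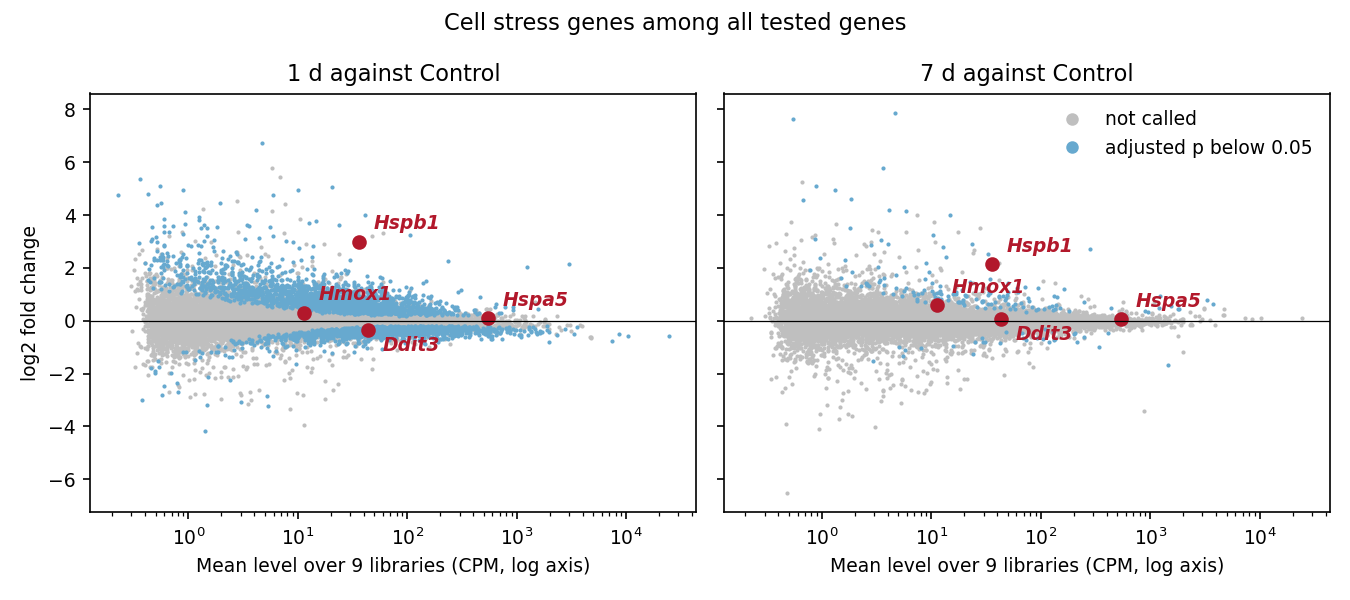
Log2 fold change against the mean level over 9 libraries (CPM, log axis) for all 17345 tested genes at 1 d and at 7 d against Control; blue points have an adjusted p below 0.05 and the 4 stress genes are labelled in red. Hspb1 lies near the upper edge of the cloud at both times, with 0.352% of genes higher at 1 d and 0.363% at 7 d, and the other three lie within it.

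A direct test then compared 7 d with 1 d. Ddit3 was the 1 gene of the 4 that was called, higher at 7 d than at 1 d, where 29.2% of tested genes were called and 13.4% were called higher. Its 43.2 to 52.9 CPM at 7 d lay above the 29.8 to 42.4 CPM at 1 d, by a narrow margin; 24.6% of tested genes were higher without overlap. The difference was 0.42 on the log2 scale (SE 0.128, edgeR adjusted p = 0.0334), a fold of 1.33 with a 95% interval of 1.10 to 1.62. This call was lost in 5 of 19 alternatives: with library totals as the only scaling (0.33, adjusted p = 0.0718), without 1 d replicates 2 or 3 (adjusted p 0.0862 and 0.0927) and without 7 d replicates 1 or 3 (adjusted p 0.0791 and 0.127). With neither comparison against Control called, Ddit3 shared its calls in the 3 comparisons with 5.71% of tested genes.

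Hspb1 was at 23.4 to 51.5 CPM at 7 d, against 46.1 to 81.7 CPM at 1 d, and the ranges overlapped through 7 d replicate 2. The log2 fold change between the times was -0.86 (SE 0.345, edgeR adjusted p = 0.103), a fold of 0.551 with a 95% interval of 0.316 to 0.962. DESeq2 called it (adjusted p = 0.0145), and so did edgeR without 7 d replicate 2 (log2 fold change -1.22, adjusted p = 0.0343). Hmox1 differed between the times by 0.28 (SE 0.170, edgeR adjusted p = 0.245) and Hspa5 by -0.034 (SE 0.0741, adjusted p = 0.771), with overlapping ranges for each gene. Without 7 d replicate 2 the Hmox1 value was 0.071. Leaving out replicate 1 of either time turned the sign of the Hspa5 value. The median log2 fold change of the 4 genes was 0.12, against 0.029 over all tested genes.

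Counts of 2 genes in the same library can be compared without any scaling between libraries, and such ratios to Hspa5, the gene of the 4 with the lowest fitted variation between libraries, were added after the values had been seen. For every 100 Hspa5 counts there were 14.2, 8.52 and 11.9 Hspb1 counts in the 1 d libraries, against 2.26, 1.14 and 1.35 in Control. The 7 d libraries had 6.30, 8.71 and 4.39 Hspb1 counts per 100 Hspa5 counts, also above every Control library. On the log2 scale the ratio was higher by 2.90 at 1 d and by 2.04 at 7 d than in Control, each with an exact two-sided permutation p of 0.1, the smallest that 3 libraries against 3 can give, and 0.2 after adjustment over the 6 ratio tests made.

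The ratio within the unfolded protein response moved less. There were 7.38, 6.58 and 5.35 Ddit3 counts per 100 Hspa5 counts at 1 d, against 9.31, 8.95 and 8.26 in Control, so the 1 d libraries were all lower. The log2 difference was -0.47 (exact two-sided permutation p = 0.1, adjusted 0.2). At 7 d the ratios of 9.40, 7.31 and 9.90 overlapped both the Control libraries and the 1 d libraries. Their log2 difference was -0.0059 from Control (exact permutation p = 1, adjusted 1) and 0.46 from 1 d (exact permutation p = 0.2, adjusted 0.24).

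**Figure D4:**
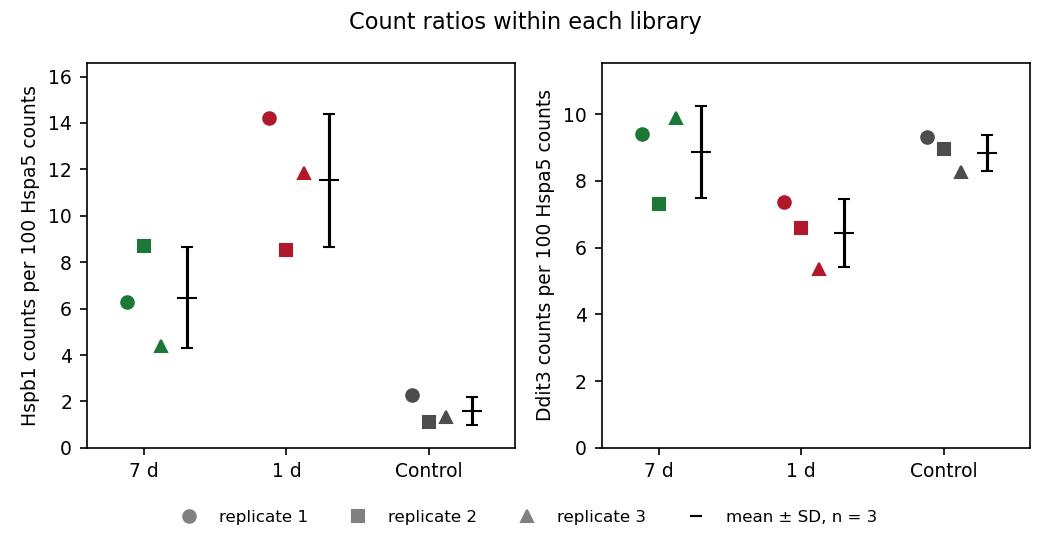
Counts of Hspb1 and of Ddit3 per 100 Hspa5 counts in the same library, for 7 d, 1 d and Control; symbols mark replicate numbers and the bar is the mean ± SD of 3 libraries. All 1 d libraries lie above Control for Hspb1 (8.52 to 14.2 against 1.14 to 2.26) and below Control for Ddit3 (5.35 to 7.38 against 8.26 to 9.31).

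The genes also differed in how steady they were within a group. Hspb1 varied most, with a coefficient of variation between libraries of 27.6% at 1 d, 40.3% at 7 d and 32.7% in Control, where counting alone would give 3.10%, 4.02% and 7.93%. In the fitted variation between libraries, 14.9% of tested genes exceeded Hspb1 and 93.4% exceeded Hspa5. Hmox1 in Control varied by 4.20%, which is below the 7.48% that counting alone would give. At 7 d, replicate 2 was the highest of its group for Hspb1, Hmox1 and Hspa5 and the lowest for Ddit3.

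The genes whose log2 CPM followed Hspb1 and Hmox1 most closely over the 9 libraries were picked from 12328 genes with a mean of at least 5 CPM, as a description, since the points share their groups. For Hspb1, 50 genes had a Pearson correlation above 0.9, and the most alike, at 0.98, was ENSRNOG00000050869. That gene was at 12.8 ± 2.86 CPM at 1 d, 8.38 ± 2.07 CPM at 7 d and 4.37 ± 0.781 CPM in Control (SD, n = 3 each). Its log2 fold change of 1.55 at 1 d was called (edgeR adjusted p = 0.00471), and that of 0.94 at 7 d was not (edgeR adjusted p = 0.113). For Hmox1, 15 genes passed 0.9, and the most alike was ENSRNOG00000013886 at 0.96. It was at 5.74 ± 0.931 CPM at 1 d, 7.02 ± 2.64 CPM at 7 d and 3.12 ± 0.447 CPM in Control (SD, n = 3 each), with log2 fold changes of 0.88 at 1 d (edgeR adjusted p = 0.0430) and 1.17 at 7 d (adjusted p = 0.0771). Both were picked for their likeness in these same libraries, so their p-values are not separate evidence. The table gives neither ID a name. For Ddit3 88 genes and for Hspa5 10 genes passed a correlation of 0.9.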

How the data were processed

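The authors deposited unnormalized counts, whole numbers for each gene in 9 libraries, as a single table. Per the submitters' processing notes, featureCounts 1.5.0-p3, HISAT2 2.0.5 and DESeq2 1.16.1 were used. Genome build, annotation and strand setting were not given in the sources used here, so reads of overlapping genes and of near-identical copies may not have been told apart. Of 34784 IDs, 0 could be matched to a symbol through the 47357 genes of the RefSeq table, so pathway and cell type lists were not used. The 4 genes, the lists and the tests were chosen with earlier results of these data known.

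From the deposited counts, 17345 genes were kept by edgeR's filterByExpr with default settings, scaled by TMM and tested in a single quasi-likelihood fit of the 9 libraries, with no term but group (glmQLFit, robust; R 4.3.3, edgeR 4.0.16). Two-sided p-values were adjusted (Benjamini-Hochberg) over all tested genes, and calls used an adjusted p below 0.05. The SE is the absolute log2 fold change over the root of the F statistic, and 95% intervals use the fit's degrees of freedom. Log2 CPM used a prior count of 2. Alternatives used DESeq2 1.42.0 and limma 3.58.1, other scalings and filters, fits of the compared groups only, replicate number as a block, and each library left out in turn. The test was checked on simulated counts with known changes. Of 67 genes given a change of 1.5-fold it recovered 26.9% at 1 d, 37.3% at 7 d and 34.3% between the times. Most of that size were thus missed in this setting. Of 66 genes given a change of 4-fold it recovered 81.8%, 90.9% and 87.9%. Another 67 genes were given a change of 2-fold, and 17169 genes were tested at 1 d. In the data, 3540 genes were called at 1 d, 177 at 7 d and 5069 between the times. Recovery with other numbers of changed genes was not tested. Pairs of replicate libraries differed by 6.80 to 38.1 in chi-square per degree of freedom, so no pair differed by counting alone. This check cannot tell libraries of separate animals from separate libraries of the same RNA. The 4 genes were always named; the gene most like Hspb1 and Hmox1, which had the largest F over the 3 groups, was given by ID.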

Additional observations from a re-analysis of the deposited data

Results flagged for a closer look

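Ddit3 differed between the times by the direct test, with a difference of 0.42 on the log2 scale for 7 d against 1 d (SE 0.128, edgeR adjusted p = 0.0334). All 3 libraries of 7 d were above all 3 of 1 d, as for 24.6% of tested genes. Between the times 29.2% of tested genes were called, and the Ddit3 call was lost in 5 of 19 alternatives. The log2 fold changes of Ddit3 from the shared Control libraries, 0.061 at 7 d and -0.35 at 1 d, were not called. Over the 3 groups together Ddit3 did not pass either (edgeR quasi-likelihood F test, adjusted p = 0.0625). The groups of 3 libraries were too small for a search for outlying libraries.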

How the results depend on the processing

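The rise of Hspb1 at 1 d was called in all 19 alternatives (log2 fold change 2.78 to 3.29, highest edgeR adjusted p 0.0237). Hspb1 at 7 d was called with upper-quartile factors (2.16), library totals (2.14), cyclic loess normalization (2.10), a filter of more than 1 CPM in 3 libraries (2.13) and DESeq2 (2.13), and ranged from 1.77 to 2.43 with a library left out. Between the times Hspb1 was called by DESeq2 (-0.87), with -1.22 to -0.63 over left-out libraries. Ddit3 between the times fell below the threshold with library totals (0.33) and ranged from 0.31 to 0.56 over left-out libraries; against Control it ranged from -0.49 to -0.24 for 1 d, and for 7 d from -0.015 to 0.13. Hspa5 at 1 d was called after cyclic loess normalization (0.25), and between the times it ranged from -0.096 to 0.014 over left-out libraries. The Ddit3 to Hspa5 ratio at 7 d against Control ranged from -0.091 to 0.13 on the log2 scale over left-out libraries. Hmox1 was called in no comparison by any of the 19 alternatives.

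The number of genes called at 1 d was 3540, against 2066 in a fit of the compared groups only and 1440 to 4595 over left-out libraries, namely 1577 when Control replicate 2, 1575 when 1 d replicate 1 and 1440 when 1 d replicate 2 was omitted. At 7 d it was 177, against 523 by DESeq2, 28 in a fit of the compared groups only and 7 to 739 over left-out libraries, a move of more than 1.5 times whichever was left out. Between the times it was 5069, and 3071 to 6070 over left-out libraries, with 3299 without 1 d replicate 2 and 3071 without 7 d replicate 3. With library totals as the only scaling, 74.3% of the calls at 1 d were higher, against 55.8%, and between the times 30.7% were higher, against 45.8%. With upper-quartile factors rises were the majority between the times, at 51.8%. At 7 d 82.5% of the calls were higher, against 66.2% by DESeq2, and omitting Control replicate 1 turned the balance to 340 higher and 399 lower (46.0% higher).

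No pairing by replicate number was seen. Same-numbered libraries deviated from their group means with correlations of -0.15 to 0.035, and 0 of 9 pairs passed 0.1. With 3 libraries per group, this check could not show that pairing was absent. With replicate number as a block, 74 genes were called at 7 d, and no call of the 4 genes changed. The causes of these changes were not tested. Depth was lowest for Hspb1 in Control, at 117 to 213 counts per library, and for Hmox1, at 157 to 292.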
